A study of Mus musculus and Rattus norvegicus with 32 samples.

Results

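The 10 core circadian clock genes Arntl, Npas2, Clock, Per2, Per3, Cry1, Nr1d1, Nr1d2, Dbp and Ciart were taken from the gene tables by their symbols. They are 10 of the 55487 genes listed for mouse and 10 of the 32883 listed for rat. All 10 passed the filter on low counts in each of the 4 tables. RNA sequencing covered 8 groups of 4 libraries, and the study asked what the m6A methyltransferase METTL5 does in the heart. The hearts came from C57BL/6 mice at 1 month (control and METTL5-KO, a knockout of the whole body), at 3 months (control and METTL5-cKO) and at 4 weeks after TAC (control and METTL5-cKO, labelled 3 months of age). METTL5-cKO mice carry a floxed allele of exons 2 to 4 that is cut by Cre under the Myh6 (αMHC) promoter, so that other heart cells keep the gene. TAC is transverse aortic constriction, a surgical pressure overload of the left ventricle, and both TAC groups had it. NRVMs are neonatal rat ventricular cardiomyocytes, here of Sprague Dawley rats at postnatal day 2, pre-plated against fibroblasts. They were infected in serum-free medium with an adenovirus carrying human METTL5 (AdMETTL5) or with AdGFP, and both groups then received 20 µM of the hypertrophic agent phenylephrine (PE) for 24 h. The mice lived in a light/dark cycle, and the hour at which each heart was taken is not given in the sources used here.

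The clock of mammalian cells is a feedback loop of transcription that takes about a day. BMAL1 (the product of Arntl) pairs with CLOCK or NPAS2, binds E-box sequences and drives the genes of its own repressors, the PER and CRY proteins and CIART, and of the REV-ERB receptors (Nr1d1, Nr1d2), which repress Arntl in turn. The PAR bZIP factor DBP carries the rhythm to genes with a D-box. In heart, Arntl RNA is known to peak at another time of day than Dbp, Nr1d1 and Per3 RNA, so the levels of the set can depend on the hour of collection.

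Letters that match the known motifs of this loop close to the starts of the genes are shown. RefSeq promoters (GRCm38.p6, 250 bases before to 50 bases after each start) covered 9 of the 10 genes in 12 windows, and Per2 had no entry. The E-box CACGTG, searched on both strands, was in 2 of these 12 windows and in 7.15% of 32851 promoters of the genome. The D-box TTANGTAA was in 1 of 12 windows and in 2.32% of all, and the REV-ERB element TAGGTCA in 1 of 12 and in 2.61% of all. The motif is in capitals in each stretch of 30 bases, written 5′ to 3′ on the strand of the gene, and the number after the gene is the distance of the first motif base from the start.
Ciart E-box at -116 (chr3:95882327-95882356, minus strand): tgcatctagagtCACGTGttgccggtaagc
Ciart E-boxes at -58 and -44 (chr3:95882262-95882291, minus strand): ggaggCACGTGcagaaccgCACGTGtctgg
Cry1 E-box at -60 (chr10:85185097-85185126, minus strand): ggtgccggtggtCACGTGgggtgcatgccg
Per3 D-box at -205 (chr4:151044852-151044881, minus strand): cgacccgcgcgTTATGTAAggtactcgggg
Per3 D-box at -158 (chr4:151044805-151044834, minus strand): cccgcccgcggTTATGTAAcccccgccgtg
Arntl element TAGGTCA at 30, after the start (chr7:113207530-113207559, plus strand): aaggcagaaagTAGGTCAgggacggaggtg
A match is a description of these letters only, and factor binding was not measured.

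The deposited values are estimated counts, and levels are given as CPM, the count scaled to a common library total, on TMM-scaled library sizes. This scaling was done within each table, also where levels of different tables are set side by side. Totals ran from 19899033 to 21804907 counts in the hearts. In the NRVMs they ran from 14324700 to 14642431 with AdMETTL5 and from 17344430 to 18085339 with AdGFP. These NRVM ranges did not overlap, so depth and virus cannot be told apart. The targeted gene Mettl5 had 5.12 ± 0.665 CPM in the control hearts at 1 month and 5.97 ± 0.807 CPM in those labelled METTL5-KO (SD, n = 4; adjusted p = 0.973 by edgeR's quasi-likelihood test), and groups are named below as labelled. In the hearts labelled METTL5-cKO it had 6.51 ± 0.731 CPM against 7.36 ± 0.554 CPM at 3 months and 6.59 ± 0.764 CPM against 6.75 ± 0.752 CPM after TAC, and neither difference passed the test (adjusted p = 0.884 and 0.874 by edgeR's quasi-likelihood test). These counts include exons outside the deleted part. All 6 cardiomyocyte markers were expressed in every group, and none of the cell type markers passed between the groups at 1 or at 3 months. Rat Mettl5 does not check the virus, which carries the human sequence. It had 17.0 ± 0.774 CPM with AdGFP and 21.2 ± 1.76 CPM with AdMETTL5 (SD, n = 4). The log2 fold change was 0.32 (adjusted p = 0.00295 by edgeR's quasi-likelihood test), in a table in which 52.8% of all genes passed. Libraries are numbered 1 to 4 within a group, by the replicate number of the labels at 1 month and for AdMETTL5, and otherwise by the ascending number in the column name. Several hearts stood apart from others of their group in the clock genes: library 1 labelled METTL5-KO, libraries 3 and 4 labelled METTL5-cKO at 3 months, control TAC library 1 and METTL5-cKO TAC library 1. For some of the genes, fold changes between groups that rest on them are given with and without them. The libraries of a group are separate samples in the labels, and that they are separate animals or cultures is not stated, so the tests measure the spread between these libraries.

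Per kilobase of exon in the 3-month-old control hearts, the REV-ERB gene Nr1d1 was the highest of the 10 at 28.1 ± 5.90 CPM per kb and the activator Npas2 the lowest at 0.411 ± 0.111 CPM per kb (SD, n = 4). Between them came Dbp at 21.6 ± 4.91, Nr1d2 at 14.4 ± 2.86, Per2 at 6.02 ± 1.92, Ciart at 4.67 ± 2.79, Per3 at 3.34 ± 1.18, Cry1 at 2.06 ± 0.316, Clock at 1.68 ± 0.106 and Arntl at 0.610 ± 0.347 CPM per kb. The ranges of Nr1d1 and Dbp overlapped, as did those of Dbp and Nr1d2, of Per2 and Ciart, and of Per2 and Per3. Those of Ciart and Per3, of Ciart and Cry1 (barely), and of Arntl and Npas2 overlapped as well. The lowest Nr1d2 value (12.0 CPM per kb) was above the highest of Per2 (7.88 CPM per kb). The hearts are bulk tissue, in which fewer cells of a type and less RNA per cell cannot be told apart.

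Of the activators, Arntl (ENSMUSG00000055116, chromosome 7 of GRCm38 from 113207465 to 113314126, plus strand) varied most between hearts. At 1 month it had 5.25, 3.66, 8.09 and 10.2 CPM in the control libraries and 1.28, 7.17, 6.53 and 7.78 CPM in those labelled METTL5-KO. At 3 months it had 2.01, 7.72, 2.92 and 5.69 CPM in the controls and 1.31, 1.55, 7.86 and 4.00 CPM in the hearts labelled METTL5-cKO. After TAC the controls had 2.08, 3.50, 2.03 and 3.88 CPM and the hearts labelled METTL5-cKO 8.86, 2.19, 1.495 and 4.14 CPM. The groups overlapped in all 3 tables, and within a group the highest library was up to 6.07 times the lowest. Npas2, the partner of BMAL1 that can stand in for CLOCK (ENSMUSG00000026077, chromosome 1 from 39193731 to 39363236), ranged from 1.04 to 5.35 CPM over the 24 hearts. Clock itself (ENSMUSG00000029238, chromosome 5 from 76209868 to 76304792) stayed between 15.7 and 24.9 CPM, a factor of 1.58, the narrowest range of the 10. Both overlap small pseudogenes or unnamed gene models in the annotation (GENCODE M21), and Arntl an antisense gene model, so that a few reads could be shared.

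**Figure D1:**
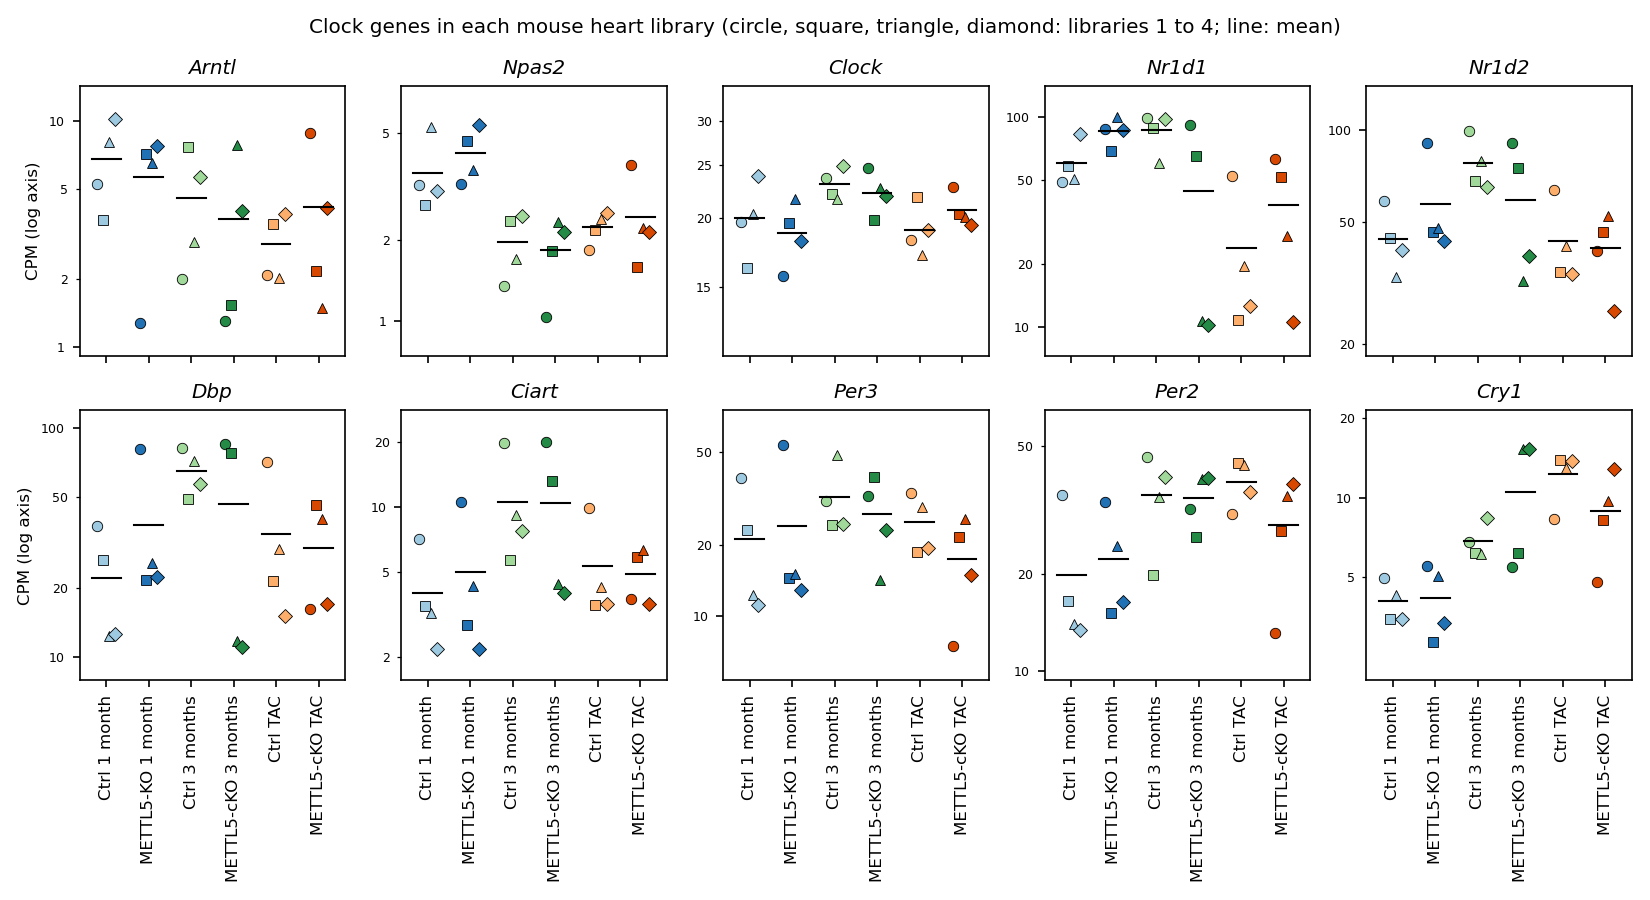
CPM (log axis, scaled for each panel) of the 10 clock genes in the 24 mouse heart libraries, by group, with 1 marker per library and a line at the group mean. Nr1d1 fell into a high band and a low band that each held libraries of several groups, whereas Clock lay between 15.7 and 24.9 CPM throughout.

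Nr1d1 (REV-ERBα, ENSMUSG00000020889, chromosome 11 from 98767932 to 98775333, minus strand) fell into separate bands of libraries. At 3 months it had 99.02, 88.1, 60.2 and 98.1 CPM in the controls and 91.9, 64.9, 10.8 and 10.2 CPM in the hearts labelled METTL5-cKO. After TAC it had 52.5, 10.8, 19.5 and 12.7 CPM in the controls and 63.1, 51.6, 27.2 and 10.6 CPM in the hearts labelled METTL5-cKO. Low and high libraries therefore stood side by side in 3 of these 4 groups, and the 3-month-old controls were all high. At 1 month all 8 hearts were high, with 49.0, 58.6, 50.7 and 82.7 CPM in the controls and 87.6, 68.6, 100.1 and 86.5 CPM in those labelled METTL5-KO. Nr1d1 overlaps Thra on the other strand, so reads of the pair can be mixed where strand was not used. Nr1d2 (REV-ERBβ, chromosome 14 from 18204054 to 18239127) ranged from 25.6 to 99.3 CPM over the 24 hearts and overlaps no other annotated gene. At 3 months it had 99.3, 68.1, 79.2 and 65.1 CPM in the controls and 90.9, 75.3, 32.1 and 38.6 CPM in the hearts labelled METTL5-cKO, so that libraries 3 and 4 with that label were low in both REV-ERB genes.

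Dbp (ENSMUSG00000059824, chromosome 7 from 45705088 to 45710203, plus strand) had 37.3, 26.5, 12.4 and 12.7 CPM in the 1-month-old controls and 81.5, 21.7, 25.7 and 22.5 CPM in the hearts labelled METTL5-KO. At 3 months it had 81.7, 48.9, 71.7 and 56.9 CPM in the controls and 85.5, 77.7, 11.7 and 11.1 CPM in the hearts labelled METTL5-cKO. After TAC it had 71.2, 21.5, 29.7 and 15.1 CPM in the controls and 16.3, 46.2, 40.3 and 17.1 CPM in the hearts labelled METTL5-cKO. Of the hearts labelled METTL5-cKO at 3 months, library 1 lay above the controls, library 2 within their range and libraries 3 and 4 below them. Ciart (CHRONO, a repressor of BMAL1 and CLOCK, chromosome 3 from 95878503 to 95882251), whose promoter holds the 3 E-boxes shown, ranged from 2.19 to 20.0 CPM and was highest in control library 1 and in library 1 labelled METTL5-cKO at 3 months. There the controls had 19.8, 5.66, 9.15 and 7.69 CPM and the hearts labelled METTL5-cKO 20.0, 13.2, 4.40 and 4.00 CPM. Dbp overlaps Sphk2 and Ciart overlaps C920021L13Rik, each on the other strand.

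Among the repressors, Per3 (chromosome 4 from 151003652 to 151044665, overlapping Camta1 on the same strand) ran from 7.45 CPM in library 1 labelled METTL5-cKO TAC to 53.7 CPM in library 1 labelled METTL5-KO. At 1 month it had 38.8, 23.3, 12.3 and 11.2 CPM in the controls and 53.7, 14.6, 15.1 and 12.9 CPM in the hearts labelled METTL5-KO. At 3 months it had 30.9, 24.4, 48.5 and 24.6 CPM in the controls and 32.6, 39.0, 14.3 and 23.4 CPM in the hearts labelled METTL5-cKO. The high Per3 libraries at 1 month, control libraries 1 and 2 and library 1 labelled METTL5-KO, were also the 3 lowest in Arntl. Per2 (chromosome 1 from 91415982 to 91459324) ran from 13.1 to 46.2 CPM, with 35.4, 16.5, 14.1 and 13.5 CPM in the 1-month-old controls and 33.5, 15.1, 24.5 and 16.4 CPM in the hearts labelled METTL5-KO. Cry1 (ENSMUSG00000020038, chromosome 10 from 85131700 to 85185064, minus strand) had 6.81, 6.15, 6.13 and 8.38 CPM in the 3-month-old controls and 5.47, 6.14, 15.2 and 15.3 CPM in the hearts labelled METTL5-cKO. After TAC it had 8.28, 13.9, 13.0 and 13.8 CPM in the controls and 4.78, 8.20, 9.70 and 12.8 CPM in the hearts labelled METTL5-cKO. The 6 libraries highest in Cry1, 3 of them controls, were the 6 lowest in Nr1d1.

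The spread between libraries of a group was 2.12 to 2.99 times that of an average gene in the hearts and not in the cultured cells. The pooled SD of log2 CPM within groups had a median over the 10 genes of 0.509 at 1 month, 0.570 at 3 months and 0.551 after TAC. The median over all genes tested was 0.240, 0.219 and 0.184. Of the 10, 9 were above that median in each of the heart tables, Clock being the exception, and 5, 7 and 7 of the 10 were among the top 10% of all genes. Nr1d1 (1.20 at 3 months, 1.09 after TAC) and Dbp (1.18 and 0.876) had the largest values in the tables of older mice, and Arntl (0.965) at 1 month. In the NRVMs the median of the 10 was 0.115 against 0.116 for all genes, with 5 of the 10 above it. These values describe the spread and were given no test.

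**Figure D2:**
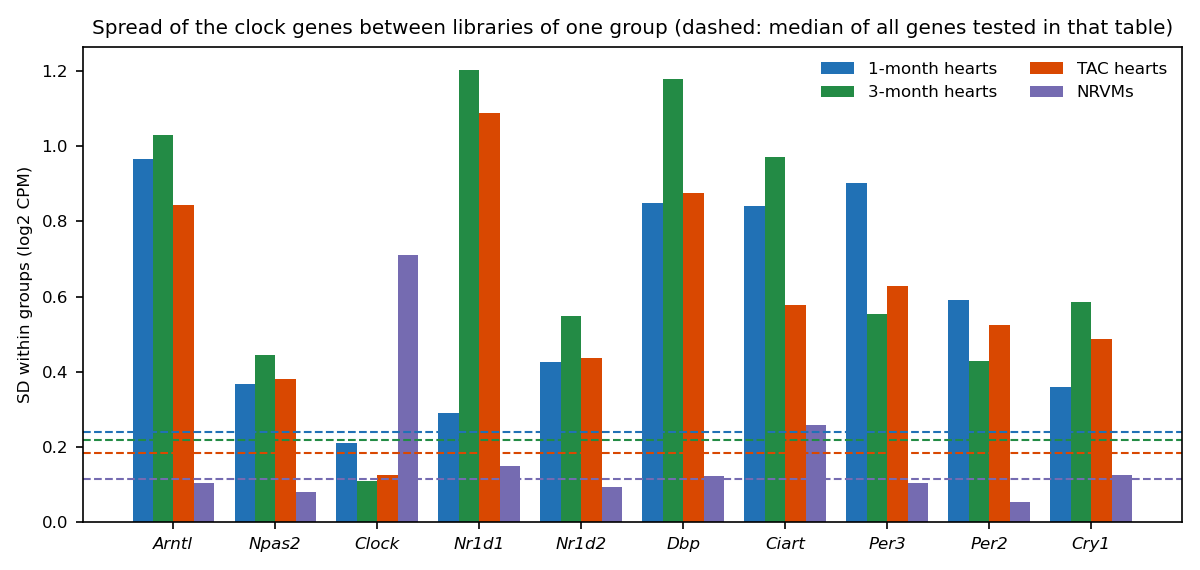
Pooled SD of log2 CPM within groups for each of the 10 clock genes in each of the 4 tables, as bars, with the median of all genes tested in a table as a dashed line of the same colour. In the hearts every gene but Clock exceeded its line, and in the NRVMs the bars were at 0.0551 to 0.150 except for Clock (0.712) and Ciart (0.260).

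The relation of Arntl to the other clock genes was described over the libraries of a table, and no relation passed after adjustment. Over deviations from group means of the 8 libraries of a table, Arntl and Dbp had a Pearson r of -0.914 at 1 month (exact permutation p = 0.0278 within groups), -0.855 at 3 months (exact permutation p = 0.0104) and -0.768 after TAC (exact permutation p = 0.0295). Spearman's rho was -0.667 (exact permutation p = 0.0747), -0.833 (exact permutation p = 0.0278) and -0.786 (exact permutation p = 0.0347). Without the 2 libraries farthest from the median of Arntl, r was -0.904, -0.735 and -0.867. Per3 had an r of -0.900, -0.848 and -0.982 in the same order of tables, Ciart of -0.834, -0.919 and -0.650 and Nr1d2 of -0.863, -0.931 and -0.547. Npas2 had an r of 0.595, 0.863 and 0.743, Clock of 0.800, 0.00851 and 0.593, Nr1d1 of 0.119, -0.717 and -0.0747, Per2 of -0.644, -0.0739 and -0.619, and Cry1 of -0.551, 0.755 and -0.329. In the NRVMs Arntl and Dbp had an r of 0.197 (exact permutation p = 0.814) and a rho of 0.286 (exact permutation p = 0.642), and an r of 0.0401 without the 2 farthest libraries. After Benjamini-Hochberg adjustment over the 36 relations computed none was under 0.05, the smallest adjusted exact permutation p being 0.104 for r and 0.0875 for rho. The ratio of Dbp to Arntl CPM ran from 1.24 to 65.2 over the 24 hearts and from 0.532 to 0.797 over the 8 NRVM libraries.

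**Figure D3:**
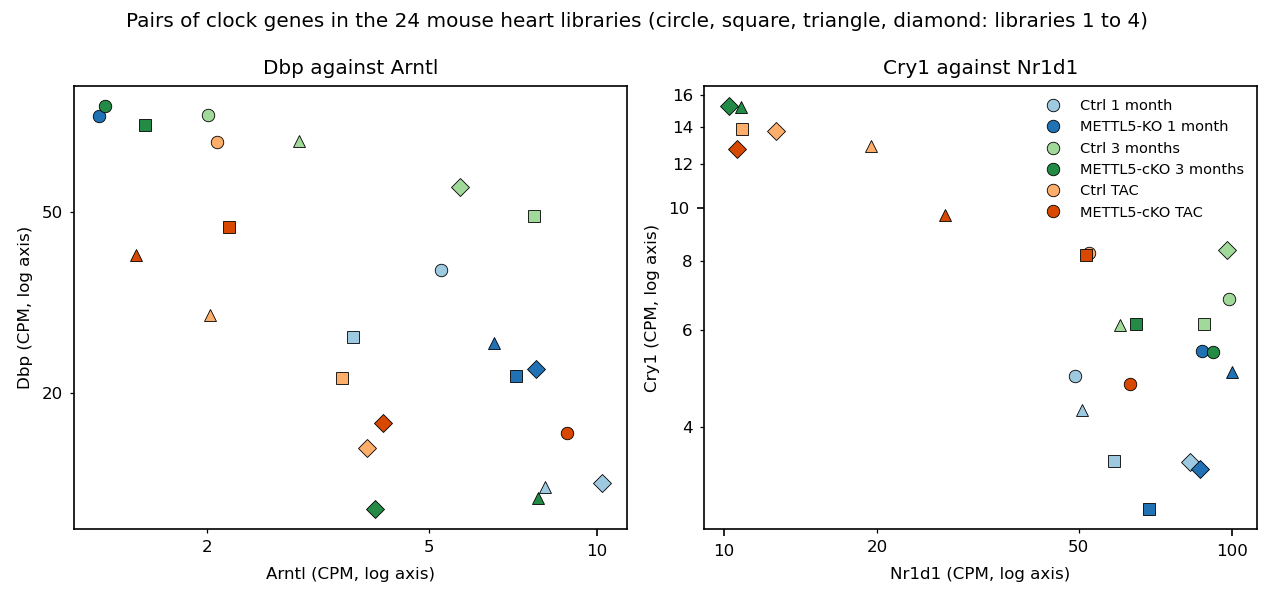
Dbp against Arntl (left) and Cry1 against Nr1d1 (right) in the 24 mouse heart libraries, both axes in CPM on log scales, coloured by group. The library highest in Arntl was the lowest in Dbp in 3 of the 6 groups, and the 6 libraries lowest in Nr1d1 were the 6 highest in Cry1.

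Over all 24 hearts and 15542 genes, the 5 genes whose deviations from group means were most opposite to Arntl held 4 clock genes. They were Per3 (r = -0.883), the PAR bZIP genes Hlf (-0.855) and Tef (-0.850), C2cd5 (-0.849) and Dbp (-0.844). Ciart had rank 6 from this end (-0.826) and Nr1d2 rank 9 (-0.803). Among the 5 genes most like Arntl were Pcbp4 (0.834), Rhoj (0.800), Ppp2cb (0.768) and Cdkn1a (0.756), and Npas2 had rank 10 (0.743). Clock had an r of 0.512, Cry1 of 0.0932, Nr1d1 of -0.341 and Per2 of -0.456 with Arntl. The libraries share their tables and groups, and these r describe likeness with no test.

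The bands of Nr1d1 and Cry1 followed the numbers in the column names of the 3-month and TAC tables, whose meaning is not stated in the sources used here. The 16 libraries have numbers from 494 to 805 with none between 692 and 747, and a limit at 700 was set after the values were seen. In the 9 libraries under 700 Nr1d1 was at 51.6 to 99.02 CPM, and in the 7 over 700 at 10.2 to 27.2 CPM. Cry1 was at 4.78 to 8.38 CPM under 700 and at 9.70 to 15.3 CPM over 700. These 2 genes were the members whose ranges did not overlap, and 12 of 15979 genes (0.0751%) did so. Others of the 12 were Gsta3, Agmo, Slc19a1, Ramp1, Jun, Zdhhc14, Tmem41b, Pdcd4 and Gm15501. The ranges lay apart by a ratio of 1.90 for Nr1d1 and 1.16 for Cry1, and of only 1.001 to 1.006 for Gm15501, Pdcd4 and Tmem41b. CPM was scaled within each table, and no joint scaling was tried for this count. Arntl spanned nearly the same range on both sides, 1.31 to 8.86 CPM and 1.495 to 7.86 CPM. Numbers over 700 belonged to none of the 4 controls and 2 of the 4 hearts labelled METTL5-cKO at 3 months, and to 3 of 4 and 2 of 4 after TAC, so number and genotype were partly confounded. The part of the hour of collection in these bands was not tested.

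At 1 month, none of the 10 clock genes passed the test between the hearts labelled METTL5-KO and the controls (edgeR's quasi-likelihood test, Benjamini-Hochberg adjusted p under 0.05 over 16329 genes, which 0.00612% of all genes passed). At an unadjusted p under 0.05 there was 1 (Nr1d1), against 4.57% of all genes, and DESeq2 called 0. Nr1d1 had 60.3 ± 15.5 CPM in the controls and 85.7 ± 13.0 CPM in the hearts labelled METTL5-KO (SD over 4 libraries), a log2 fold change of 0.51 ± 0.185 (SE, adjusted p = 0.973 by edgeR's quasi-likelihood test). The largest difference was that of Dbp, a log2 fold change of 0.77 (95% interval -0.24 to 1.77), which became 0.07 without library 1 labelled METTL5-KO. That library had the lowest Arntl (1.28 CPM) and the highest Dbp, Per3 and Nr1d2 (90.9 CPM) of the 8, and without it Per3 went from 0.17 to -0.59 and Ciart from 0.31 to -0.37. The median log2 fold change of the 10 was 0.21, and that of all genes -0.0067. None of the 10 had groups that did not overlap, which 3.01% of all genes had.

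At 3 months, none of the 10 passed between the hearts labelled METTL5-cKO and the controls (edgeR's quasi-likelihood test over 16391 genes, 0.0732% of all genes called). None was under an unadjusted p of 0.05 either, against 7.05% of all genes, and DESeq2 called 0. Nr1d1 had the largest log2 fold change, -0.96 (standard error 0.630, adjusted p = 0.884 by edgeR's quasi-likelihood test), and Cry1 the next, 0.62 (standard error 0.336, adjusted p = 0.821). Without libraries 3 and 4 labelled METTL5-cKO, the comparison held only numbers under 700, and Nr1d1 came to -0.14 and Cry1 to -0.24. In the same comparison Dbp went from -0.48 to 0.33, Nr1d2 from -0.40 to 0.09 and Arntl from -0.31 to -1.68 (standard error 0.552), the 2 remaining hearts having 1.31 and 1.55 CPM of Arntl. The median log2 fold change was -0.17 for the 10 and 0.00071 for all genes. The groups of all 10 genes overlapped, whereas 4.23% of all genes did not.

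After TAC, none of the 10 passed between the hearts labelled METTL5-cKO and the controls, in a table in which 12.7% of 16340 genes did (edgeR's quasi-likelihood test). None was under an unadjusted p of 0.05, against 31% of all genes, DESeq2 called 0, and no groups failed to overlap, against 18.6% of all genes. Of all calls 1074 of 2071 were higher, and 2060 of 2584 with scaling by library size alone. The median log2 fold change of the 10 was -0.10, against -0.0035 for all genes, and the values ran from -0.52 for Per3 (standard error 0.340) to 0.68 for Nr1d1 (standard error 0.599). Their 95% intervals, by a normal approximation, were wide for the genes of large spread, -0.50 to 1.85 for Nr1d1 and -0.46 to 1.52 for Arntl. The interval was narrow for Clock, -0.07 to 0.30. Without control TAC library 1 and METTL5-cKO TAC library 1, Per3 came to -0.11, Nr1d1 to 1.06 ± 0.504 (SE), Arntl from 0.53 to -0.28, Dbp from -0.20 to 0.65, Ciart from -0.12 to 0.48 and Nr1d2 from -0.07 to 0.18. Cry1 then went from -0.47 to -0.41 (standard error 0.159) and Per2 from -0.45 to -0.31 (standard error 0.144). With the 3 controls and 2 hearts labelled METTL5-cKO numbered over 700 alone, Nr1d1 was at 0.41 (standard error 0.408), Cry1 at -0.27 (standard error 0.143) and Dbp at 0.39 (standard error 0.393). The markers of other cells moved in this table: all 4 endothelial markers were lower, and 4 of 5 fibroblast markers and 2 of 4 macrophage markers higher with the METTL5-cKO label. Of the 6 cardiomyocyte markers 1 was lower, Tnni3, and their sum was 18000 to 23478 against 24262 to 28385 CPM. The sums of the other lists, in the same order, were 339 to 465 against 504 to 590 CPM, 566 to 1251 against 401 to 488 CPM and 65.8 to 95.7 against 56.8 to 66.4 CPM, and their part in the values of the clock genes was not tested. The atrial genes Bmp10 and Myl7 were at 0 in both TAC groups.

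**Figure D4:**
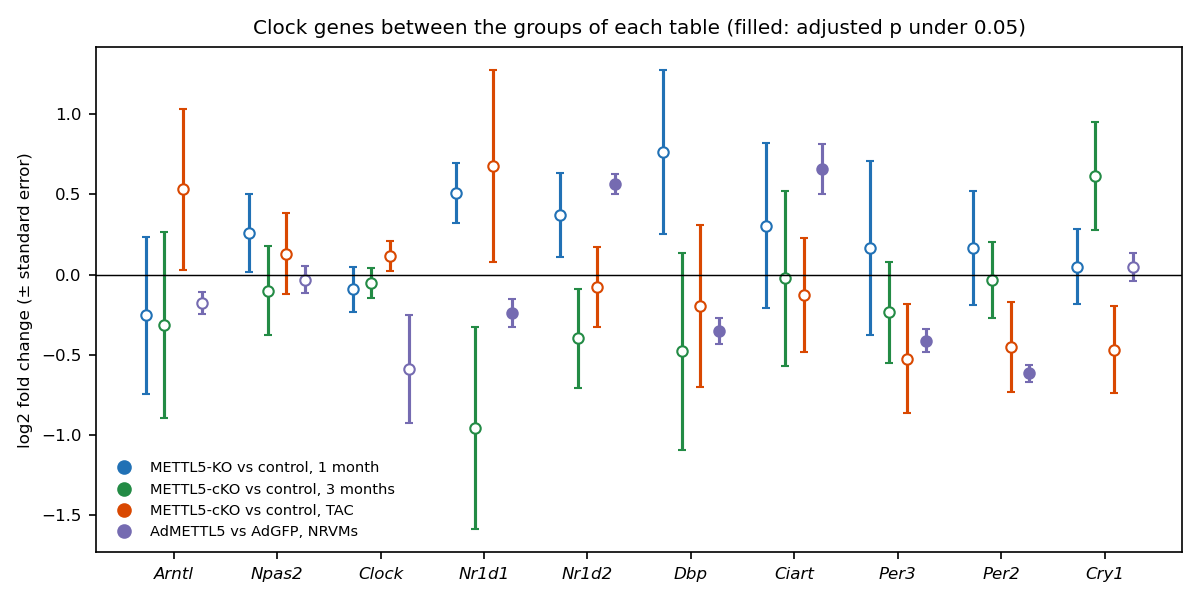
Log2 fold change with its standard error for the 10 clock genes in the 4 comparisons, filled where the adjusted p was under 0.05 (edgeR's quasi-likelihood test). The filled points were all in the NRVMs, where each gene but Clock had its smallest standard error.

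The genotype difference after TAC and that at 3 months were set against each other in one fit of both tables, in which TAC and table cannot be told apart. No clock gene passed (0 of 10 by edgeR's quasi-likelihood test and by DESeq2, 0.00586% of 17070 genes called). Cry1 alone was under an unadjusted p of 0.05, against 11.8% of all genes, with a log2 difference of -1.07 (standard error 0.471, adjusted p = 0.393 by edgeR's quasi-likelihood test). Without libraries 3 and 4 labelled METTL5-cKO at 3 months the difference in Cry1 was -0.21 ± 0.387 (SE), and without TAC library 1 of each genotype as well it was -0.15 ± 0.240 (SE). Between control hearts of different tables, age, surgery, table, hour and the range of the column numbers cannot be told apart. Of the control TAC libraries 3 of 4 had numbers over 700, and of the 3-month-old controls none. Against the 3-month-old controls, 0 of 10 passed in the control TAC hearts by edgeR's quasi-likelihood test and by DESeq2 (0.256% of 17597 genes called). At an unadjusted p under 0.05 there were 4 of the 10, against 14.7% of all genes. They were Nr1d1 with a log2 fold change of -1.85 ± 0.607 (SE), Nr1d2 with -0.84, Cry1 with 0.83 and Clock with -0.28, at adjusted p from 0.162 to 0.252. Without control TAC library 1, the 1 numbered under 700, they were at -2.59 ± 0.642, -1.08 ± 0.330, 0.98 ± 0.327 and -0.26 ± 0.124 (SE). In the 1-month-old controls 1 of the 10 passed by edgeR's quasi-likelihood test, among 36.6% of all genes (4 of 10 against 46.4% at an unadjusted p under 0.05, and 0 of 10 against 8.66% with a log2 fold change over 1): Npas2 was higher, with a log2 fold change of 0.98 (adjusted p = 0.00925 by edgeR's quasi-likelihood test). On CPM scaled within each table, and not in the joint fit, it had 3.21, 2.71, 5.25 and 3.04 CPM at 1 month. At 3 months it had 1.35, 2.36, 1.70 and 2.46 CPM. Npas2 lost the call without control library 3 at 1 month (0.74, adjusted p = 0.0506 by edgeR's quasi-likelihood test). Without control library 1 at 1 month 3 of the 10 passed, against 35.5% of all genes. Without control library 2 at 3 months 2 passed, against 34.2%.

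In the NRVMs, 6 of the 10 clock genes passed between AdMETTL5 and AdGFP (edgeR's quasi-likelihood test over 15041 genes), in a table in which 52.8% of all genes did. Per2, Per3, Dbp and Nr1d1 were lower with AdMETTL5, 4 of 10 against 25.7% of all genes, and Nr1d2 and Ciart were higher, 2 of 10 against 27.1%. At an unadjusted p under 0.05 there were 7 of the 10, against 58.2% of all genes, and DESeq2 called 7, against 46.4%. None of them passed with a log2 fold change over 1, as 5.85% of all genes did. Of all calls 4082 of 7949 were higher, and 5872 of 8215 with scaling by library size alone. That scaling called 5 of the 10, against 54.6% of all genes. The median log2 fold change of the 10 was -0.21, against -0.0022 for all genes. The groups of 5 of the 10 did not overlap, against 48.4% of all genes.

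The repressor Per2 (ENSRNOG00000020254) had 41.4, 43.6, 40.7 and 41.1 CPM with AdGFP and 28.3, 25.8, 28.2 and 26.6 CPM with AdMETTL5. The groups lay well apart, and they differed by a log2 fold change of -0.61 ± 0.0526 (SE, adjusted p = 1.73e-06 by edgeR's quasi-likelihood test). Per3 had 36.9, 36.4, 38.2 and 42.8 CPM with AdGFP and 27.9, 27.1, 31.8 and 29.3 CPM with AdMETTL5, a log2 fold change of -0.41 ± 0.0694 (SE, adjusted p = 0.000361). Cry1, a repressor beside the PER genes, was at 15.1 to 17.9 CPM with AdGFP and 15.2 to 18.7 CPM with AdMETTL5 (log2 fold change 0.05, 95% interval -0.12 to 0.21). The PAR bZIP gene Dbp had 23.8, 25.9, 20.3 and 23.9 CPM with AdGFP and 19.6, 16.8, 18.8 and 18.2 CPM with AdMETTL5, a log2 fold change of -0.35 ± 0.0813 (SE, adjusted p = 0.00305).

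The REV-ERB genes went in opposite directions. Nr1d2 had 53.4, 57.5, 62.2 and 61.6 CPM with AdGFP and 88.2, 80.9, 92.9 and 85.2 CPM with AdMETTL5, groups far apart, with a log2 fold change of 0.56 ± 0.0610 (SE, adjusted p = 1.13e-05 by edgeR's quasi-likelihood test). Nr1d1 had 63.6, 67.3, 52.5 and 68.1 CPM with AdGFP and 56.9, 56.9, 52.1 and 47.6 CPM with AdMETTL5, groups that overlapped, with a log2 fold change of -0.24 ± 0.0849 (SE, adjusted p = 0.0327). This call was lost with scaling by library size alone (-0.10, adjusted p = 0.282), without the filter on low counts (adjusted p = 0.0621) and without AdGFP library 1, 2 or 4 or AdMETTL5 library 3 or 4. Ciart had 6.23, 6.26, 6.54 and 6.28 CPM with AdGFP and 7.62, 13.3, 10.9 and 8.20 CPM with AdMETTL5, a log2 fold change of 0.66 ± 0.157 (SE, adjusted p = 0.00371). These groups did not overlap, and the AdMETTL5 libraries spread from 7.62 to 13.3 CPM.

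Of the activators, Arntl was at 33.7 ± 3.24 CPM with AdGFP and at 29.9 ± 1.17 CPM with AdMETTL5 (SD, n = 4), with overlapping groups and a log2 fold change of -0.18 (adjusted p = 0.0524 by edgeR's quasi-likelihood test, and 0.0332 by DESeq2). By edgeR's quasi-likelihood test, scaling by library size alone gave Arntl -0.04 (adjusted p = 0.626). The adjusted p of that test was 0.0484 with DESeq2 size factors and 0.0784 without the filter on low counts. It ran from 0.0130 to 0.148 over single libraries left out. Npas2 was at 7.56 to 8.90 CPM and 7.69 to 8.46 CPM. Clock (ENSRNOG00000002175) had 86.8, 95.9, 92.4 and 95.3 CPM with AdGFP and 91.9, 26.9, 98.1 and 30.1 CPM with AdMETTL5. AdMETTL5 libraries 1 and 3 lay at the level of the controls and libraries 2 and 4 far below it. This division was taken from the values of Clock, so Clock was bound to be split by it. Among 9294 genes with a mean count over 200, only Clock and Smurf1 were split by this division by more than a log2 difference of 1. No other division of the libraries was counted, so the count does not show how unusual such a split is. The log2 fold change of Clock was -0.59 (standard error 0.336, adjusted p = 0.164), and 0.04 without libraries 2 and 4. Markers moved with the virus as well: all 6 cardiomyocyte markers were lower with AdMETTL5, summed to 6772 to 7421 against 14226 to 16254 CPM, and 4 of 5 fibroblast markers were lower, summed to 6972 to 7696 against 8573 to 9072 CPM. Their part in the clock genes was not tested.

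**Figure D5:**
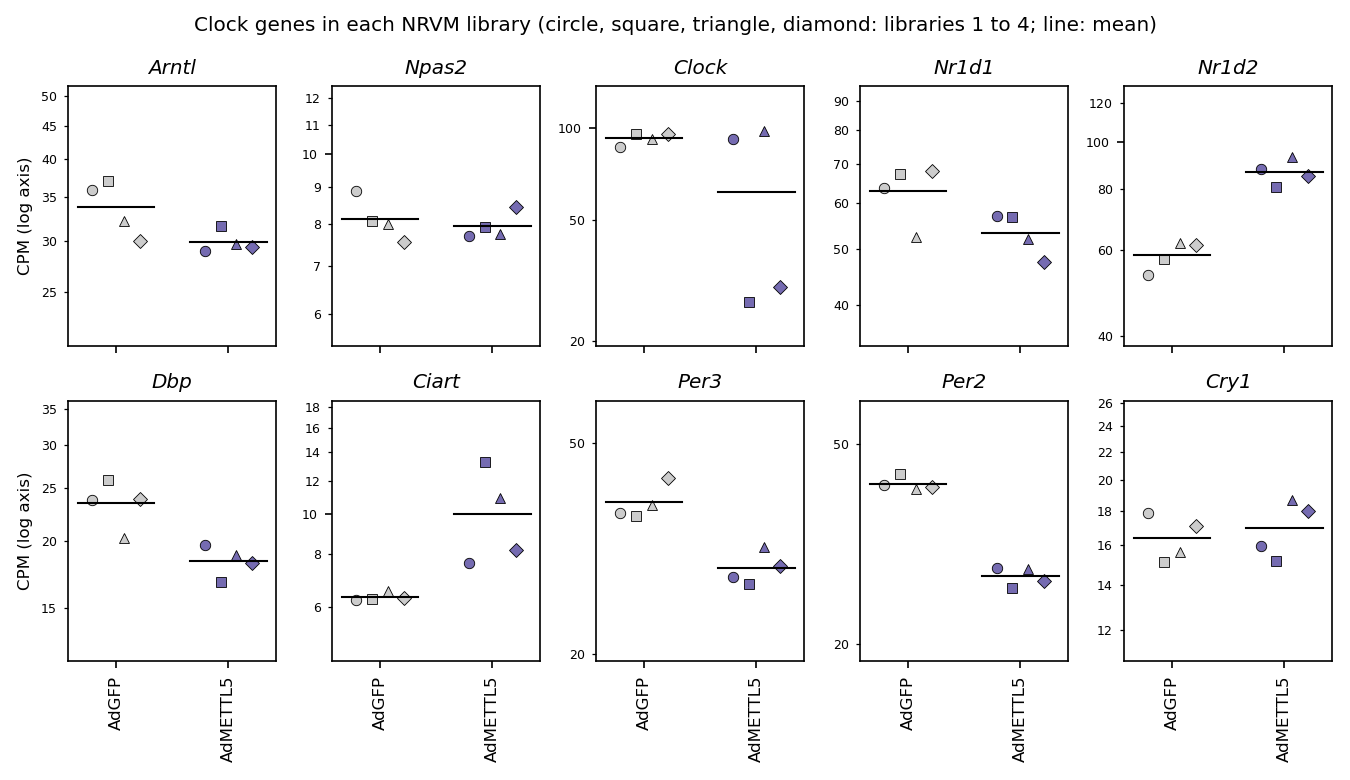
CPM (log axis, scaled for each panel) of the 10 clock genes in the 8 NRVM libraries, with 1 marker per library and a line at the group mean. Per2 and Nr1d2 separated the viruses in opposite directions, and Clock was at 26.9 and 30.1 CPM in AdMETTL5 libraries 2 and 4 against 86.8 to 98.1 CPM in the other 6.

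Other genes of the clock and genes with a known daily rhythm in heart were read beside the 10. Of 19 other clock genes, 0 of 17 tested passed at 1 month and at 3 months by edgeR's quasi-likelihood test and by DESeq2. At each age 1 of 17 was under an unadjusted p of 0.05, against 4.57% and 7.05% of all genes. After TAC 1 of 17 did pass, against 12.7% of all genes, and DESeq2 called 5, against 16.9%: Timeless, a replication fork protein that also binds clock proteins, was lower in the hearts labelled METTL5-cKO with a log2 fold change of -0.59 (adjusted p = 0.0168), a call lost without METTL5-cKO TAC library 2 (adjusted p = 0.0519). In the NRVMs 12 of 18 passed, 10 higher and 2 lower, against 52.8% of all genes. The 5 with the smallest adjusted p were all higher with AdMETTL5: Timeless (log2 fold change 0.95), the D-box repressor Nfil3 (0.72), the PER partner Cry2 (0.55), the kinase Csnk1d (0.34) and Per1 (0.56), so that Per1 rose where Per2 and Per3 fell. Between control hearts at 1 month and at 3 months 4 of 18 passed, against 36.6% of all genes: Csnk1e (0.95) and Timeless (0.49) were higher at 1 month, and Bhlhe41 (-1.24) and Fbxw11 (-0.46) lower.

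Of 15 genes with a known daily rhythm in heart, 0 of 14 tested passed at 1 month and at 3 months by edgeR's quasi-likelihood test and by DESeq2. Under an unadjusted p of 0.05 were 1 and 2 of the 14, against 4.57% and 7.05% of all genes. After TAC 3 of 14 did, against 12.7% of all genes: the mitochondrial carrier Ucp3 was lower with the METTL5-cKO label (log2 fold change -0.82, adjusted p = 0.0310), and the immunophilin Fkbp5 (0.77, adjusted p = 0.0318) and the pyruvate dehydrogenase kinase Pdk4 (0.95, adjusted p = 0.0496) were higher. None of the 3 kept its call without the filter on low counts (adjusted p from 0.0644 to 0.102), and each lost it without at least 4 of the 8 libraries in turn. In the NRVMs 10 of 14 passed, 5 in each direction, against 52.8% of all genes. Those with the smallest adjusted p were the triglyceride synthesis gene Dgat2 (1.13), the kinase Wee1 (0.71), the NAD synthesis gene Nampt (0.74), Lonrf3 (1.33) and Fkbp5 (0.52), all higher with AdMETTL5. Between control hearts at 1 month and at 3 months 2 of 15 passed, against 36.6% of all genes, Coq10b (-1.05) and Dgat2 (-0.80), both lower at 1 month. In control TAC hearts against 3-month-old controls, and in the comparison of the genotype effects, neither list had a call by edgeR's quasi-likelihood test or by DESeq2. The unadjusted p was under 0.05 for 1 of 18 other clock genes and 0 of 15 rhythmic genes in the first, against 14.7% of all genes. In the second it was under 0.05 for 3 of 17 and 2 of 15, against 11.8%.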

How the data were processed

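The deposited tables give the estimated count of each gene in each library. Per the labels and the methods of the study, the authors aligned reads to GRCm38 or Rnor_6.0 with HISAT2 (2.0.4) and made counts with StringTie (2.1.4) before depositing them. Submitters' processing notes also name DESeq2. Strandedness is not given in the sources used here. The values were whole numbers, were rounded as a safeguard and, though planned as plain counts, were tested as estimated counts. Each table was fitted across all genes with edgeR 4.0.16 in R 4.3.3 (TMM, filterByExpr with a minimum count of 10 and a minimum total of 15, glmQLFit and glmQLFTest, adjusted p under 0.05 with no minimum fold). The study's limit of a log2 fold change of 1 was an alternative, as were DESeq2 1.42.0, other scalings and filters, and leaving out each library. Log2 CPM used a prior count of 2. Exact permutations for correlations ran over 576 arrangements within groups.

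No unmapped column of values was left. Gene positions and exon lengths are from GENCODE M21 (GRCm38). Columns of the 3-month, TAC and AdGFP libraries were mapped to a group only. No libraries of a group agreed within sampling noise (smallest chi-square per degree of freedom 2.16). Genes named are the 10 members, up to 5 called genes of each further list with the smallest adjusted p in a comparison, and the 5 most and 5 least like Arntl. Some items that these rules name are not reported here. Members and lists were chosen with earlier results of these data known. The fits were tested on simulated data.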

Additional observations from a re-analysis of the deposited data

Results flagged for a closer look

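Of 80 groups of 4 libraries (10 genes in 8 groups), 6 had a library far from the others by Dixon's ratio, where chance gives about 4. Library 1 labelled METTL5-KO at 1 month accounted for 4 of them: Arntl was at 1.28 CPM against 6.53 to 7.78 CPM in the other 3 libraries of its group, Dbp at 81.5 CPM against 21.7 to 25.7 CPM, Nr1d2 at 90.9 CPM against 43.5 to 47.7 CPM and Per3 at 53.7 CPM against 12.9 to 15.1 CPM. In the control TAC group, Cry1 was at 8.28 CPM in library 1 against 13.0 to 13.9 CPM in the others. In the AdGFP group, Ciart was at 6.54 CPM in library 3 against 6.23 to 6.28 CPM, a gap that is small on the scale of the gene.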

How the results depend on the processing

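The counts of clock genes called differed from those reported at an unadjusted p under 0.05. They were 1 at 1 month (against 4.57% of all genes) and 1 in the comparison of genotype effects (11.8%). They were 4 in control TAC hearts against 3-month-old controls (14.7%) and 4 in 1-month-old against 3-month-old controls (46.4%). With the limit on fold change they were 0 in the NRVMs (5.85%) and 0 between controls at 1 and 3 months (8.66%). Leaving out each library gave 0 in the 3 heart tables. The share of all genes called was then at most 0.0121% at 1 month, at most 0.0541% at 3 months and 2.88% to 23.4% after TAC. It gave 5 to 7 in the NRVMs (against 46.4% to 50.6% of all genes) and 0 to 3 between controls at 1 and 3 months (28.5% to 36.2%). Scaling by library size alone moved the median of all genes by 0.15 (log2) after TAC and by 0.14 in the NRVMs, and turned Arntl against Dbp in the NRVMs to r = -0.23 (-0.19 to 0.45 over single libraries left out). It also turned Per2 (0.0048) and Ciart (0.032) at 3 months, Nr1d2 (0.10) and Ciart (0.043) after TAC and Npas2 (0.11) in the NRVMs, none of them called. Leaving out single libraries turned these uncalled log2 fold changes, whose ranges were, at 1 month, Arntl -0.46 to 0.080, Clock -0.18 to 0.0044, Per2 -0.092 to 0.61, Per3 -0.59 to 0.63, Cry1 -0.11 to 0.20 and Ciart -0.37 to 0.75. At 3 months they were Arntl -1.01 to 0.055, Npas2 -0.25 to 0.092, Per2 -0.23 to 0.12, Per3 -0.46 to 0.034 and Ciart -0.56 to 0.47. After TAC they were Arntl -0.16 to 0.82, Npas2 -0.17 to 0.29, Nr1d2 -0.21 to 0.17, Dbp -0.48 to 0.45 and Ciart -0.27 to 0.37, and in the NRVMs Npas2 -0.065 to 0.015 and Cry1 -0.0022 to 0.10. The cause was not tested. The other clock genes called after TAC numbered 0 to 4 without single libraries (0 without METTL5-cKO TAC library 2, 4 without METTL5-cKO TAC library 4), 5 by DESeq2 and 4 with library size alone, and the rhythmic genes 0 to 6, and 0 without a filter. The median within-group SD of the clock genes ranged over single libraries left out from 0.417 to 0.557, 0.498 to 0.624, 0.442 to 0.597 and 0.106 to 0.123 in the 4 tables. Same-numbered libraries at 1 month had correlations of 0.239, 0.120, -0.107 and 0.0782, so the numbers were not taken to pair them, and with the replicate number as a block 0 of the 10 were called, Dbp being at 0.69 (adjusted p = 0.916 by edgeR's quasi-likelihood test). Library numbers 1 and 2 correlated best with their own number and the others did not. No paired analysis was possible in the other tables because their columns carry no numbers shared between the groups. Sets of libraries left out together were chosen after seeing the data.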
